A study of Homo sapiens with 6 samples.

Results

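Metallothioneins, zinc transporters and the zinc sensor MTF1 were examined as a set of 10 genes in HEK293, a human cell line that was established from embryonic kidney. The genes were taken by symbol from the gene count table, and all 10 had a row among the 57820 in the table. They were MTF1, the metallothionein genes MT2A, MT1X, MT1E and MT1F, the zinc exporter genes SLC30A1 and SLC30A5, and the zinc importer genes SLC39A6, SLC39A10 and SLC39A14. Cultures in medium with 10% serum had received either 100 µM minocycline or DMSO, the solvent of the drug, for 12 h, and none of the 6 was heat shocked. Total RNA was sequenced from 3 libraries of minocycline-treated cells and 3 libraries of vehicle control cells. The series' design text calls them biological replicates. Tetracycline antibiotics, to which minocycline belongs, bind divalent metal ions. The comparison therefore addresses whether transcripts that respond to free zinc differed after the drug.

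In mammalian cells free zinc in the cytosol is kept very low. Metallothioneins are small cysteine-rich proteins that bind zinc and copper. The transporters of the SLC30 family (ZnT) move zinc out of the cytosol, across the plasma membrane or into organelles, and those of the SLC39 family (ZIP) move zinc into it. The transcription factor MTF1 binds zinc through its zinc fingers and then binds metal response elements in the promoters of metallothionein genes and of SLC30A1. When zinc is scarce these targets are transcribed less, and transcription of SLC39A10, which MTF1 represses in mouse and zebrafish, is released.

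The metal response element core is TGCACNC or TGCGCNC, where N is any base. It was searched on both strands in the 250 bases before the transcription start, with overlaps allowed. RefSeq promoters (GRCh38.p14) were found for 7 of the 10 genes; MT1E, MT1F and SLC39A14 had none in the table used. A core was present in 24.8% of 35116 promoters of this length, and 4 or more were present in 0.37%. The MT2A promoter held 7 matches, 5 of them on the gene's strand, the MT1X promoter held 4, and those of SLC30A1 and SLC39A6 held 1 each. MTF1, SLC30A5 and the 2 promoters of SLC39A10 held none in this window. The promoters of the 3 genes that are best known as MTF1 targets are given 5′ to 3′ on the gene's strand, with matches to the core on either strand in capitals. They lie at chr16:56608334-56608583 (plus strand) for MT2A, chr16:56682220-56682469 (plus strand) for MT1X and chr1:211579162-211579411 (minus strand) for SLC30A1.
MT2A: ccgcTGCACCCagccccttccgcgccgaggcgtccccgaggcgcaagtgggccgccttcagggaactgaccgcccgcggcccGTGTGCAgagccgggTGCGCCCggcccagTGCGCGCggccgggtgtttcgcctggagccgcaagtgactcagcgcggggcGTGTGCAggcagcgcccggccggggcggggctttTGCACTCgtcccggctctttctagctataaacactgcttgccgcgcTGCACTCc
MT1X: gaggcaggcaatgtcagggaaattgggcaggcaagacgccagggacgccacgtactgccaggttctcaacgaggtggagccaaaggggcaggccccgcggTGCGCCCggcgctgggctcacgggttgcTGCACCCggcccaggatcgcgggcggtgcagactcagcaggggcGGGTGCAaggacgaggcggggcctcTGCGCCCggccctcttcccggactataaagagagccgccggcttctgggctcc
SLC30A1: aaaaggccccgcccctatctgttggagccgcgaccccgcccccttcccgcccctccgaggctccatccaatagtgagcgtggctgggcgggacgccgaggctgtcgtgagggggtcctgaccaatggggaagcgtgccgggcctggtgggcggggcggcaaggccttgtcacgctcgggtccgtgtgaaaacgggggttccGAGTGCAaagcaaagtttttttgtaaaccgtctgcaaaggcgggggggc
The matches nearest the start lay 8 to 2 bases before it in MT2A, 53 to 47 bases in MT1X and 49 to 43 bases in SLC30A1. A match describes the letters in the window and was not tested for binding.

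In GRCh37 coordinates of a GENCODE annotation, which match the hg19 build of the counts, the metallothionein members lie together on the plus strand of chromosome 16. MT2A spans 56642496 to 56643409, MT1E 56659387 to 56661024, MT1F 56691643 to 56694610 and MT1X 56716382 to 56718108. MTF1 (38275246 to 38325264) and SLC30A1 (211744910 to 211752503) lie on the minus strand of chromosome 1. SLC30A5 lies on chromosome 5 (68389818 to 68426896, plus strand), SLC39A6 on chromosome 18 (33688494 to 33709348, minus strand), SLC39A10 on chromosome 2 (196440701 to 196602426, plus strand) and SLC39A14 on chromosome 8 (22224791 to 22291642, plus strand). Each of the 10 is a protein-coding gene in that annotation. The sources used here do not state whether each count is a sum over the gene's exons.

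The total count was 17303180 to 17830320 in the minocycline libraries and 17395826 to 17835756 in the control libraries. The libraries differed along a gradient that crossed the groups. The first principal component of log2 CPM (counts scaled to library size) held 52.9% of the variance. Its scores were -14, -32.3 and 3.06 in minocycline replicates 1, 2 and 3, and -34.9, 31.1 and 47.1 in control replicates 1, 2 and 3. Control replicate 1 thus stood with minocycline replicates 1 and 2 and apart from the other control libraries. Minocycline replicate 3 lay between them. The cultures carried transcripts known from HEK293 cells. Of 10 such markers, 8 were matched in the table, and each of these had at least 48 counts in every library. The leukocyte markers PTPRC, CD68 and CD3E had at most 3 counts in any library, as had DCN of fibroblasts, CDH5 of endothelium and HBB of erythroid cells. Not all markers of other cell types were this low. Among fibroblast markers COL1A1 had 927 to 1428 counts per library, COL3A1 26 to 39 and LUM 30 to 59. The endothelial marker VWF had 22 to 53. Since RNA was taken from whole cultures, a lower level in all cells and a lower level in some of them cannot be told apart.

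None of the 10 genes changed past the threshold after minocycline. Of the 10, 9 passed the filter on low counts and were tested, and 0 had a Benjamini-Hochberg adjusted p under 0.05 in edgeR's quasi-likelihood test over 17225 genes, where 0.0522% of genes (9 genes, all higher) were called. An unadjusted p under 0.05 was also reached by 0 of the 9, against 4.7% of all genes tested (2.72% higher and 1.97% lower), and DESeq2 and limma-voom called 0 of them as well. The 3 measured metallothioneins had a lower fitted level with minocycline, as had 47.9% of all genes tested, and MTF1 and the 5 transporters a higher one, as had 52.1%. None of these 9 genes had groups that did not overlap, an arrangement that 9.31% of all genes tested showed (5.74% higher and 3.56% lower). In each of the 9 genes control replicate 1 lay on the side of the other control libraries towards which the minocycline mean was shifted.

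**Figure D1:**
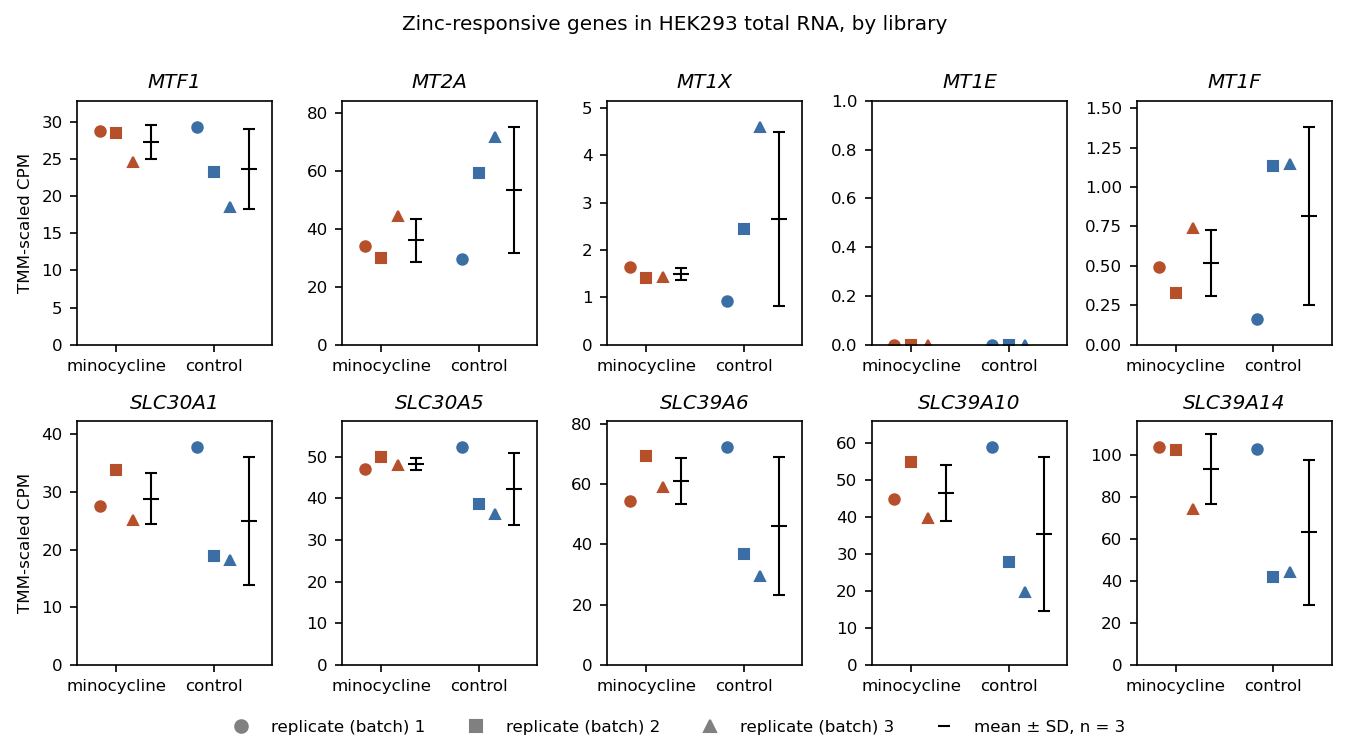
Normalised counts (TMM-scaled CPM, vertical axes from 0) of the 10 genes in each library, with minocycline left of control in each panel, a symbol for each replicate number and the mean ± SD beside the points (n = 3). In every tested gene the circle of control replicate 1 lies within or beyond the minocycline values, while control replicates 2 and 3 lie to the other side, and MT1E is at 0 throughout.

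MTF1, the zinc-sensing transcription factor itself, had 28.7, 28.5 and 24.6 CPM in minocycline replicates 1, 2 and 3, against 29.3, 23.2 and 18.6 CPM in control replicates 1, 2 and 3. The highest and the lowest value were thus both from control libraries. Its log2 fold change was 0.20 ± 0.19 (SE; edgeR adjusted p = 0.830), and the 95% interval of the fold ran from 0.863 to 1.54.

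MT2A, the main metallothionein of these cells, had 33.9, 29.8 and 44.2 CPM in the minocycline libraries, from 621, 548 and 774 counts. The control libraries had 29.5, 59.2 and 71.6 CPM, from 542, 992 and 1184 counts. Control replicates 2 and 3 were above all minocycline libraries, and control replicate 1 was below all of them. The group means were 35.99 ± 7.44 CPM with minocycline and 53.4 ± 21.7 CPM in controls (SD, n = 3 each). The log2 fold change was -0.57 ± 0.29 (edgeR adjusted p = 0.820), and the 95% interval of the fold ran from 0.427 to 1.06. A rise of more than 1.06-fold with minocycline thus lay outside the interval, while no change and a fall to less than 0.5 of the control level both lay inside it.

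MT1X, which shares the metal-binding function of MT2A, was far lower, at 1.64, 1.41 and 1.43 CPM in the minocycline libraries (30, 26 and 25 counts), against 0.924, 2.45 and 4.59 CPM in the controls (17, 41 and 76 counts). The minocycline libraries were close to one another and lay inside the range of the controls. The log2 fold change was -0.82 ± 0.49 (edgeR adjusted p = 0.820), with a 95% interval from -1.91 to 0.28. MT1X shares 321 exon bases on the same strand with an unnamed long noncoding RNA gene, and 11.6% of the 100-base windows of its annotated transcripts occur in transcripts of that gene, so its level is less certain than that of MT2A. MT1F, another metallothionein of the same cluster, had 9, 6 and 13 counts with minocycline and 3, 19 and 19 counts in controls. Its log2 fold change of -0.63 ± 0.64 (edgeR adjusted p = 0.840) had an interval from -2.06 to 0.80, which includes falls and rises of more than 1.5-fold.

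MT1E had 0 counts in all 6 libraries. In each library this allows a level of up to 0.163 to 0.181 CPM, the worth of 3 counts, as far as counting error goes. None of its 1148 transcript windows of 100 bases occurred in a transcript of another gene. The search covered exact matches to annotated transcripts only, so a loss of MT1E reads to similar sequence was not tested. In the whole metallothionein family, 6 of 12 genes (MT1A, MT1E, MT1H, MT1L, MT1M and MT4) had 0 counts in every library. MT1L is annotated as a pseudogene, and all 87 of its windows occur in transcripts of an unnamed noncoding gene on the same strand. Its 0 counts therefore do not show that it was absent. MT1B and MT1G had 1 count each over all libraries, and MT3, the brain metallothionein, had 0 to 2 per library. MT2A thus held 93.9%, 94.3% and 95.1% of the summed metallothionein CPM in the minocycline libraries, and 96.3%, 94.2% and 92.5% in the control libraries. The summed level was 36.1, 31.6 and 46.5 CPM with minocycline and 30.6, 62.9 and 77.4 CPM in controls, with group means of 38.1 ± 7.66 CPM and 56.9 ± 23.9 CPM. The groups overlapped in this sum as they did in MT2A.

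SLC30A1, the plasma membrane zinc exporter and a target of MTF1, had 27.5, 33.7 and 25.1 CPM in the minocycline libraries, against 37.7, 18.9 and 18.1 CPM in the controls. The minocycline libraries lay between control replicate 1 and the other controls. The log2 fold change was 0.21 ± 0.28 (edgeR adjusted p = 0.868), and the 95% interval of the fold ran from 0.751 to 1.78. MT2A and SLC30A1, which are both targets of MTF1, had fitted changes of opposite sign, and control replicate 1 was the lowest of the 6 libraries in MT2A and the highest in SLC30A1. SLC30A5, which loads zinc into the early secretory pathway together with the product of SLC30A6, had 47.0, 49.9 and 47.9 CPM with minocycline and 52.3, 38.6 and 36.2 CPM in controls. It varied least among the tested genes, with a log2 fold change of 0.19 ± 0.16 (edgeR adjusted p = 0.828) and a 95% interval of the fold from 0.887 to 1.47. SLC30A5 shares 532 exon bases with a gene on the opposite strand, and whether the counting used strand was not stated in the labels.

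SLC39A14, a transporter of zinc, iron and manganese, had the highest mean CPM of the 10 genes in both groups, although MT2A was above it in control replicates 2 and 3, and the largest positive fold change. It had 104, 102 and 74.2 CPM in the minocycline libraries, against 103, 42.1 and 44.4 CPM in the controls. Control replicate 1 was thus level with minocycline replicates 1 and 2. The log2 fold change was 0.56 ± 0.32 (edgeR adjusted p = 0.820), with a 95% interval from -0.15 to 1.28.

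SLC39A6, a zinc importer of the plasma membrane that forms a complex with the product of SLC39A10, had 54.6, 69.5 and 58.9 CPM with minocycline and 72.2, 36.7 and 29.4 CPM in controls. SLC39A10 had 44.8, 54.9 and 39.9 CPM with minocycline and 58.9, 27.8 and 19.6 CPM in controls. In both partners control replicate 1 was the highest of the 6 libraries and control replicate 3 the lowest. Their log2 fold changes were 0.40 ± 0.29 (edgeR adjusted p = 0.820) for SLC39A6 and 0.39 ± 0.34 (edgeR adjusted p = 0.829) for SLC39A10, with 95% intervals from -0.25 to 1.06 and from -0.38 to 1.16. SLC39A6 shares 227 exon bases on the same strand with a noncoding gene.

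**Figure D2:**
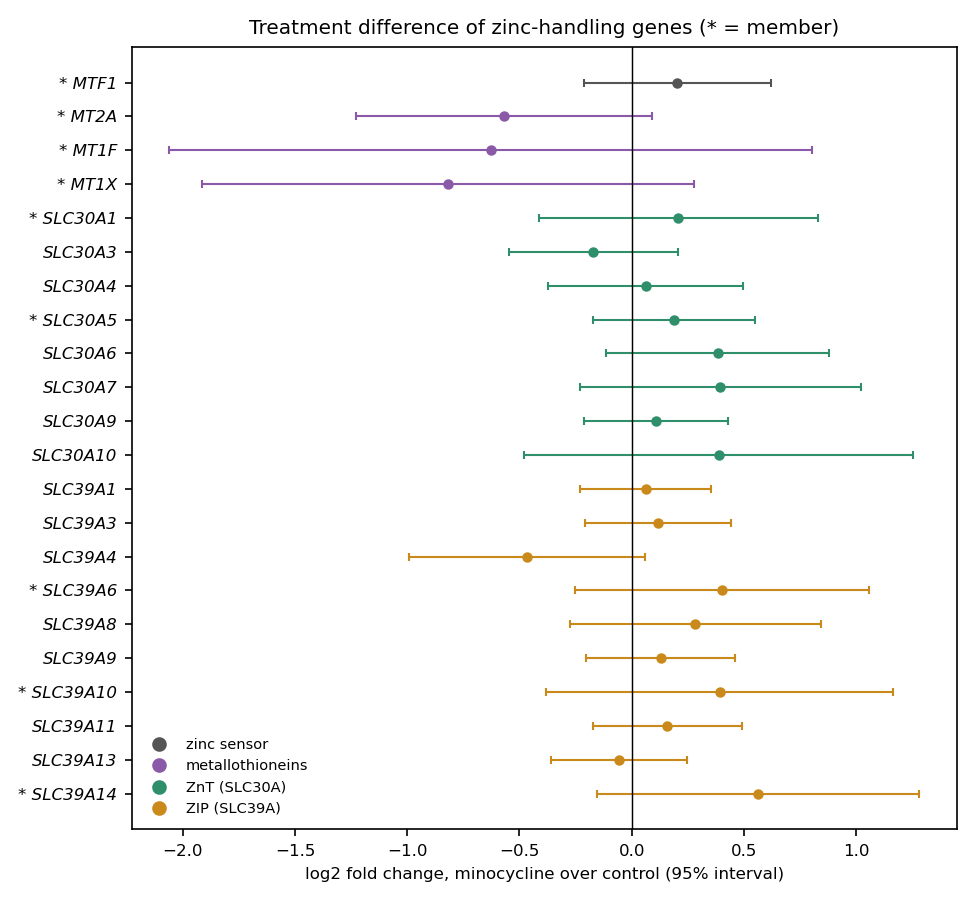
Fitted log2 fold change of minocycline over control (points) with its 95% interval (bars) for MTF1 and for every metallothionein, ZnT and ZIP gene that was tested, with asterisks on the 9 tested members. All 22 intervals include 0, the narrowest among the members being that of SLC30A5 and the widest that of MT1F.

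Levels were compared between genes per length, as CPM per kilobase of annotated exons, a length that need not be that of the transcripts present. MT2A stood highest, at 39.4 ± 8.14 with minocycline and 58.4 ± 23.7 in controls (SD, n = 3 each). SLC39A6 followed with 16.6 ± 2.08 and 12.5 ± 6.22, and SLC39A14 with 13.5 ± 2.41 and 9.15 ± 5.00, in minocycline and control libraries in that order. SLC30A5 had 8.88 ± 0.27 with minocycline and 7.78 ± 1.599 in controls, SLC39A10 had 6.73 ± 1.11 and 5.12 ± 3.00, SLC30A1 had 4.89 ± 0.75 and 4.23 ± 1.88, and MTF1 had 3.42 ± 0.29 and 2.97 ± 0.67. MT1X, with 0.865 ± 0.073 in minocycline and 1.54 ± 1.07 in control libraries, MT1F, with 0.281 ± 0.113 in minocycline and 0.440 ± 0.305 in control libraries, and MT1E at 0 came last. The order of the means was the same in both groups. In the controls, neighbours from SLC39A6 down to MTF1 differed by less than the larger of their SDs.

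The spread of these genes lay mostly within the control group. The highest control library exceeded the lowest 2.43-fold in MT2A, 2.45-fold in SLC39A6 and in SLC39A14, 3.00-fold in SLC39A10, 2.08-fold in SLC30A1, 1.58-fold in MTF1 and 1.45-fold in SLC30A5. The same ratio among the minocycline libraries was 1.48, 1.27, 1.40, 1.38, 1.34, 1.17 and 1.06 in these 7 genes. Over the 11874 genes with a mean of at least 5 CPM its median was 1.22 with minocycline and 1.35 in controls. The ratio was wider in controls in all 9 tested members, and in 70.4% of those 11874 genes.

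Each labelled batch pairs 1 minocycline with 1 control library, and within these pairs the differences did not keep their sign. In batch 1 the log2 difference of minocycline minus control was 0.20 for MT2A and 0.76 for MT1X, and in batches 2 and 3 it was -0.99 and -0.69 for MT2A and -0.75 and -1.61 for MT1X. The transporters were the other way round. SLC39A6 had differences of -0.40, 0.92 and 1.00 in batches 1, 2 and 3, SLC39A10 had -0.39, 0.98 and 1.02, and SLC30A1 had -0.45, 0.83 and 0.47. SLC39A14 had 0.01, 1.28 and 0.74, and was the only tested member with the same sign in all 3 batches.

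**Figure D3:**
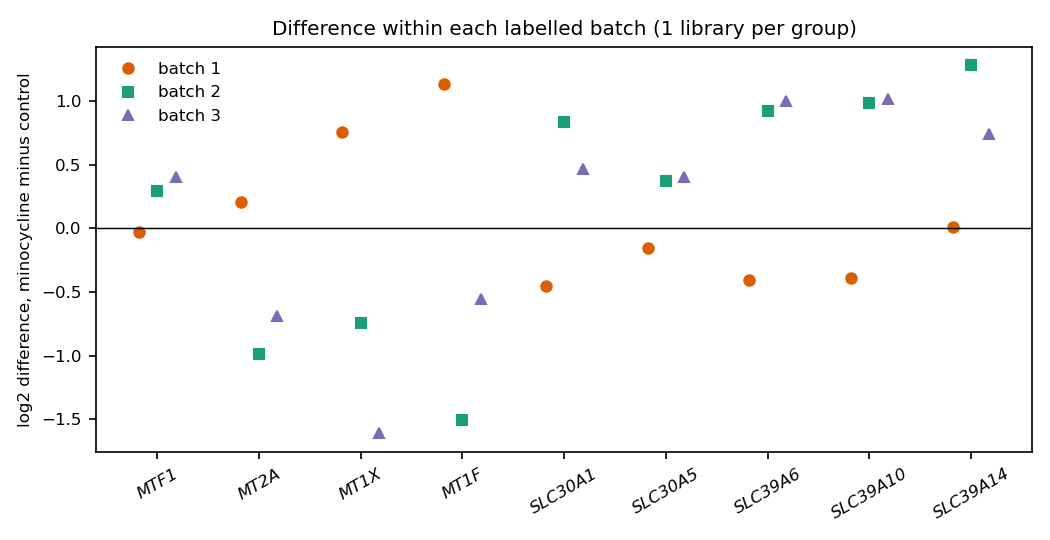
Log2 difference of minocycline minus control (vertical axis) for the 9 tested genes within each labelled batch, 1 library per group and batch. Batches 2 and 3 lie on the same side of 0 in every gene, below it for the 3 metallothioneins and above it for the others, whereas batch 1 lies on the opposite side in every gene but SLC39A14, at 0.01.

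The calls and the size of the differences depended on which control library was kept. Without control replicate 1, 6 of the 9 genes were called, in a fit where 17.9% of 17658 genes were called. SLC39A14 had a log2 fold change of 1.11 (edgeR adjusted p = 0.000558), SLC39A6 of 0.88 (adjusted p = 0.00214), SLC39A10 of 0.97 (adjusted p = 0.00309) and SLC30A1 of 0.64 (adjusted p = 0.0136), all higher with minocycline, as were 9.52% of genes in that fit. MT2A, at -0.86 (adjusted p = 0.00335), and MT1X, at -1.23 (adjusted p = 0.0173), were lower, as were 8.34% of genes. MTF1 (0.38, adjusted p = 0.0892), SLC30A5 (0.37, adjusted p = 0.0521) and MT1F (-1.13, adjusted p = 0.103) were not called. In this setting the 2 remaining controls are the libraries with the highest scores on the first component, so that treatment and the gradient cannot be told apart. Without control replicate 3 all 9 fold changes kept their sign and lay closer to 0, and 0 were called. MT2A then had a log2 fold change of -0.31, MT1X of -0.17 and MT1F of -0.30, while SLC39A14 had 0.35, SLC39A6 0.15, SLC39A10 0.09, SLC30A5 0.08, MTF1 0.05 and SLC30A1 0.01 (edgeR adjusted p = 1.000 for each). Without control replicate 2, SLC39A14 had 0.34, SLC39A6 0.26, SLC39A10 0.24, SLC30A5 0.13, SLC30A1 0.04 and MT1F -0.31. Without minocycline replicate 2, SLC39A10 had 0.26, SLC30A1 0.08 and MT1F -0.38, and without minocycline replicate 3 MT1F had -0.98.

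Levels of short and of long genes also differed between the libraries. The metallothioneins are short genes, MT2A having 914 annotated exon bases, whereas the 5 transporters and MTF1 have 3683 to 7989. Among genes of at least 5 CPM, the 1797 with at most 2625 exon bases had a median centred log2 CPM of -0.10, -0.20 and 0.07 in minocycline replicates 1, 2 and 3, and of -0.20, 0.19 and 0.29 in control replicates 1, 2 and 3. The 3491 genes with at least 7596 bases had 0.05, 0.15 and -0.02 with minocycline and 0.17, -0.13 and -0.20 in controls. MT2A, like the short genes, was low in minocycline replicates 1 and 2 and control replicate 1 and high in control replicates 2 and 3, with centred values of -0.31, -0.50 and 0.07 with minocycline and -0.51, 0.49 and 0.76 in controls. These lay further from 0 than the medians of the short genes. With a correction for exon length, chosen after the data were seen, the log2 fold change was -0.51 for MT2A (edgeR adjusted p = 0.706) and 0.52 for SLC39A14 (adjusted p = 0.706), against the uncorrected -0.57 and 0.56. MTF1, the longest of the 10, had 0.13 with the correction (adjusted p = 0.813) and 0.20 without it. MT1X had -0.73 with it and -0.82 without it, and SLC39A6 had 0.39 and 0.40. Whether exon length underlies any of these differences was not tested.

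**Figure D4:**
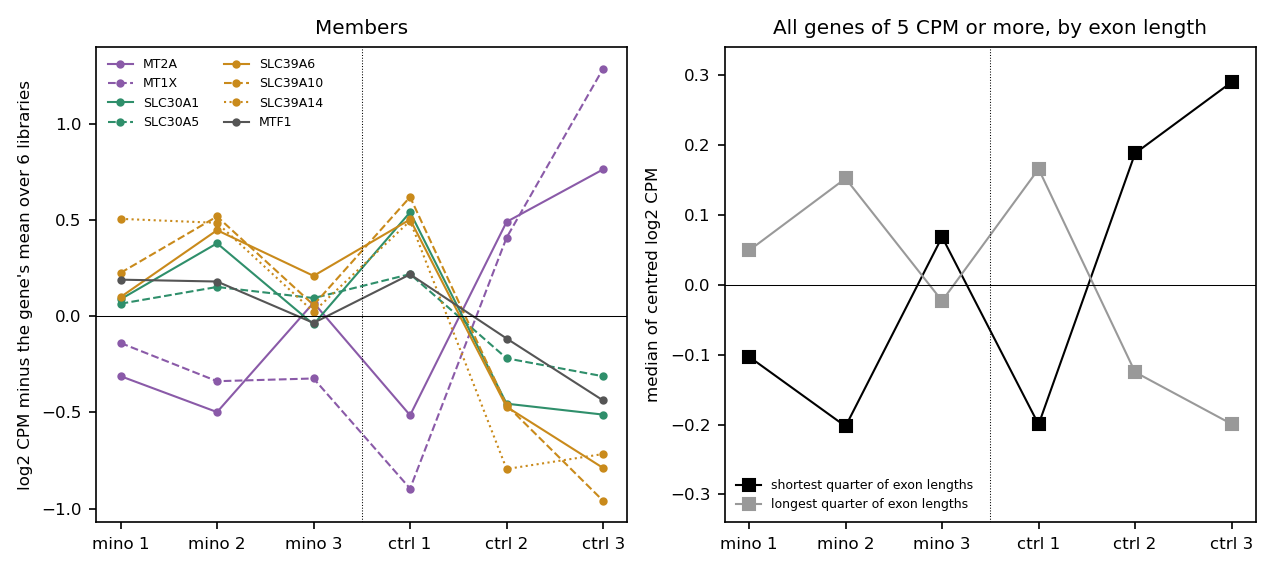
Left, log2 CPM of 8 of the genes in each library, minus each gene's mean over the 6 libraries; right, the median of such centred values over all genes of at least 5 CPM with at most 2625 exon bases (black) or at least 7596 (grey), with minocycline libraries left of the dotted line and controls right of it. MT2A and MT1X are lowest in control replicate 1 and highest in control replicate 3, SLC30A1, SLC30A5, SLC39A6 and SLC39A10 run the opposite way, SLC39A14 is highest in minocycline replicate 1 and lowest in control replicate 2, and the short and long genes show the same crossing at a smaller scale.

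Likeness of profile over the 6 libraries was measured among 11873 other genes of at least 5 CPM, a level that no metallothionein but MT2A reached. By the smallest root mean square difference of centred log2 CPM the genes most like MT2A were TMSB10 (0.026), SULT1A1 (0.039) and TNNT1 (0.051), where the median gene was at 0.515. The nearest to SLC30A1 were ARFGEF1 (0.031), ATG2B (0.041) and CEP192 (0.046), against a median of 0.406. None of these 6 genes passed in the comparison (edgeR adjusted p from 0.820 to 0.846). They were chosen for their likeness to genes that were not called, so this outcome is not separate evidence.

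Across the complete families the picture was the same. Of 24 zinc transporter genes 18 were tested, 15 with a higher and 3 with a lower fitted level with minocycline. Of all genes tested, 52.1% had a higher one. Of the 18, 0 were called by edgeR, with 0 at an unadjusted p under 0.05. The 8 tested ZnT genes had a median log2 fold change of 0.20 (range -0.17 to 0.39) and the 10 tested ZIP genes one of 0.14 (range -0.47 to 0.56), where the median over all genes tested was 0.01. The 3 tested metallothioneins had a median of -0.63. With 1 surrogate variable in the fit the medians were 0.04 for the metallothioneins, 0.04 for the ZnT genes and 0.06 for the ZIP genes. Without control replicate 3 the medians were -0.30 for the metallothioneins, 0.08 for the ZnT genes and 0.08 for the ZIP genes. Within batches 1, 2 and 3 the medians were -0.28, 0.38 and 0.44 for the ZnT genes, 0.02, 0.20 and 0.22 for the ZIP genes and 0.76, -0.99 and -0.69 for the metallothioneins.

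Among ZnT genes outside the 10, SLC30A7, which carries zinc into the Golgi, had a log2 fold change of 0.39 ± 0.28, and SLC30A6, whose product pairs with that of SLC30A5, had 0.38 ± 0.22 (edgeR adjusted p = 0.820 for both). Among ZIP genes the smallest p was that of SLC39A4, an importer of the plasma membrane, at -0.47 ± 0.23 (edgeR adjusted p = 0.820), and SLC39A8, a close relative of SLC39A14, had 0.28 ± 0.25 (adjusted p = 0.829). SLC30A3, at 7.59 ± 0.08 CPM with minocycline and 8.54 ± 0.87 CPM in controls, and SLC39A11, at 15.5 ± 0.21 CPM with minocycline and 13.9 ± 1.15 CPM in controls, were the 2 of these 18 genes whose groups did not overlap, where 9.31% of all genes tested showed this. Both are named because of that outcome. Their log2 fold changes were -0.17 ± 0.17 and 0.16 ± 0.15 (edgeR adjusted p = 0.839 and 0.832). Without control replicate 1, where 9.52% of all genes were called higher and 8.34% lower, 3 of 9 tested ZnT genes were called, all higher, and 5 of 11 ZIP genes, 4 of them higher.

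SLC39A7, which releases zinc from the endoplasmic reticulum and is used widely by human cells, was listed at 0 counts in all 6 libraries and was picked out after its values had been seen. Of the 48 protein-coding genes within 1 Mb of it on chromosome 6, 26 (54.2%) had fewer than 10 counts over all libraries, against 20.2% of the other protein-coding genes in the table. No level is therefore given for it.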

How the data were processed

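Libraries were made from total RNA with a NEBNext Ultra II kit and sequenced as paired ends, per the labels' protocols. The sources used here do not name the RNA selection, strandedness, aligner or counting program. The authors deposited whole-number counts per gene with no normalization, on hg19 per the submitters' processing notes. Of 57820 Ensembl identifiers, 55538 matched the symbol table. Positions and exon lengths came from GENCODE on GRCh37, and promoters from RefSeq on GRCh38.p14.

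Genes were filtered with filterByExpr, scaled with TMM factors and tested with edgeR 4.0.16 (glmQLFit, glmQLFTest; R 4.3.3), minocycline against control, with treatment as the only term. A gene was called at a Benjamini-Hochberg adjusted p under 0.05, over all 17225 genes tested. The standard error was the log2 fold change divided by the square root of F, and 95% intervals used the t distribution. CPM values are TMM-scaled. The test was run on simulated counts first. Counts differed by more than sampling noise in each pair of libraries of a group (chi-square over degrees of freedom, 6.19 to 70.7).

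The labels give each replicate number as a batch, so same-numbered libraries are paired by label. Their deviations from the group means correlated at -0.05, -0.29 and 0.30 across genes. Pairs with different numbers ran from -0.425 to 0.5, the highest being minocycline replicate 2 with control replicate 1. The labelled pairs were thus not the most alike. The members and lists were chosen with earlier results of these data known. All 10 members are named. Of the other genes on each list, those called are named, and otherwise the 2 with the smallest p. Likeness was measured among genes of at least 5 CPM. Alternatives were RLE, upper-quartile and library size scaling, no filter and at least 10 counts in every library, DESeq2 1.42.0, limma-voom (limma 3.58.1), a minimum fold of 1.5, the replicate block, 1 surrogate variable (sva 3.50.0), each library left out and, added later, an exon length correction by splines.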

Additional observations from a re-analysis of the deposited data

How the results depend on the processing

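In 16 of 17 alternatives 0 of the 9 tested genes were called by the test used. The count over leave-one-out fits ran from 0 to 6, the 6 being those without control replicate 1, which also gave 3154 calls over all genes. Over all genes 9 were called, and 1 to 3154 with a library left out: 1 without minocycline replicate 1 or minocycline replicate 3, and 4 without control replicate 2. The count was 94 of 33543 genes with no filter on low counts, 50 with DESeq2, 3 with a minimum fold of 1.5, 91 with 1 surrogate variable and 15 with the exon length correction. With the replicate block 13 genes were called, none of them among the 10, and MT2A had -0.50 and SLC39A14 0.67 (edgeR adjusted p = 0.858 for both); the block changed no call of the 10. The sign was reversed with 1 surrogate variable for MT1X (0.037), MT1F (0.58) and SLC30A1 (-0.077), and in no other of 152 values of a gene under an alternative; the cause was not tested. MT1F was not tested with at least 10 counts in every library. MT2A ran from -0.86 to -0.07 and SLC39A14 from 0.26 to 1.11 over 17 alternatives. Counts of 3 to 76 in MT1X and MT1F limit their precision. The p-values set each difference against the spread between 3 libraries per group, estimated with information shared across genes.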

Other observations

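Other metal and stress genes were described in the same fit. Of 14 magnesium transport genes, all tested, 13 had a higher fitted level with minocycline, as had 52.1% of all genes tested. Of the 14, 0 were called by edgeR, with 0 at an unadjusted p under 0.05 and a median log2 fold change of 0.25. These genes have 5088 to 16324 annotated exon bases, and whether length bears on their fitted levels was not tested. MAGT1, a magnesium transporter and subunit of the oligosaccharyltransferase, had 109 ± 7.94 CPM with minocycline and 80.4 ± 24.0 CPM in controls (SD, n = 3 each), a log2 fold change of 0.44 ± 0.20 (edgeR adjusted p = 0.820), and CNNM4, a magnesium exporter, had 0.34 ± 0.16 (edgeR adjusted p = 0.820). The median of this list within batches 1, 2 and 3 was 0.02, 0.53 and 0.31, and without control replicate 1, where 9.52% of all genes were called higher and 8.34% lower, its median was 0.45 and 8 of 14 were called, all higher. Of 10 tested copper handling genes 3 had a higher and 7 a lower fitted level, and 0 were called, with 0 at an unadjusted p under 0.05. The copper chaperones ATOX1 and COX17 had log2 fold changes of -0.41 ± 0.24 and -0.38 ± 0.22 (edgeR adjusted p = 0.820 for both). Without control replicate 1, 3 of the 10 were called higher and 3 lower, among the lower ATOX1 at -0.64 (edgeR adjusted p = 0.00975) and COX17 at -0.54 (adjusted p = 0.0385).

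Of 10 tested genes of the heavy metal and oxidant response, 5 had a higher and 5 a lower fitted level, 0 were called by edgeR, and 4 had an unadjusted p under 0.05, where 4.7% of all genes tested did. HMOX1, the heme oxygenase that heavy metals induce, had 54.2 ± 5.78 CPM with minocycline and 54.7 ± 18.6 CPM in controls. TXNRD1, the cytosolic thioredoxin reductase, had 247 ± 26.1 CPM with minocycline and 189 ± 30.6 CPM in controls, a log2 fold change of 0.39 ± 0.15 (edgeR adjusted p = 0.820), and its difference was above 0 in all 3 batches (0.16, 0.56 and 0.46). Without control replicate 1 TXNRD1 was called, at 0.52 (edgeR adjusted p = 0.0130), the 1 gene of 11 tested in this list that was. In that fit 17.9% of all genes were called. HSPA1B, an inducible chaperone gene with a near-identical neighbour in HSPA1A that makes its level uncertain, had -1.004 ± 0.348 (edgeR adjusted p = 0.820) and was called with no filter on low counts (adjusted p = 0.00885) and with 1 surrogate variable (adjusted p = 0.0354), but in none of the other 15 alternatives. HMOX1 was named after its values had been seen.

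Metallothioneins are also induced by glucocorticoids. Of 8 genes, the receptor gene NR3C1 and 7 of its targets, all tested, 5 had a higher and 3 a lower fitted level, with a median log2 fold change of 0.09 and 0 called by edgeR, and 0 had an unadjusted p under 0.05. KLF9, a transcription factor of this response, had 61.2 ± 1.04 CPM with minocycline and 50.4 ± 4.71 CPM in controls, a log2 fold change of 0.28 ± 0.13 (edgeR adjusted p = 0.820), and PER1, a clock gene, had -0.29 ± 0.16 (edgeR adjusted p = 0.820). NR3C1 was the 1 gene of the 8 called without control replicate 1 (0.46, edgeR adjusted p = 0.0232), where 17.9% of all genes were called. TSC22D3 was called with 1 surrogate variable (0.69, edgeR adjusted p = 0.0288), where 0.528% of all genes were called.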
